A study of Mus musculus with 19 samples.

Results

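Iron handling in cells rests on a small set of proteins, and 8 of their genes are described here in embryonic brain and adult cerebellum of mice that carry 1 functional copy of Wiz. The 8 genes, of 41388 Ensembl genes counted, were matched by symbol and cover export (Heph, Cp and Slc40a1), uptake (Slc11a2, Tfrc and Trf) and storage (Fth1 and Ftl1). They were chosen with earlier results of these data known: Heph was taken because its level was higher in Wiz MommeD30/+ E13.5 brain, and the others because they act with it. The genotype difference of Heph in E13.5 brain is therefore given as a description, with no test.

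The mice were of the FVB strain (FVB/NJ in the study's methods) and all of them, wildtype controls included, carried the multicopy GFP transgene of the screen in which the mutant was found. MommeD30 is a chemically induced deletion of an adenine in Wiz that shifts the reading frame, and homozygotes die before birth, so that the comparison is between Wiz +/+ and Wiz MommeD30/+ animals. RNA-seq counts were available for whole E13.5 brains of male embryos (3 Wiz +/+ and 3 Wiz MommeD30/+) and of female embryos (2 and 2), bred from heterozygous parents, and for cerebellums of adult males aged 56 days (3 and 3). The allele is present in every cell of the animal, and whole brain and whole cerebellum mix many cell types. In bulk samples of this kind, fewer cells of a type and less RNA per cell cannot be told apart.

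As background, ferrous iron leaves a cell through ferroportin, the product of Slc40a1, and is oxidised by a multicopper ferroxidase, either hephaestin (Heph), which is anchored in the membrane, or ceruloplasmin (Cp), which is secreted or held by a lipid anchor. Ferric iron is then bound by transferrin (Trf) and taken up through the transferrin receptor (Tfrc). It leaves the endosome in the ferrous form, carried by the divalent metal transporter DMT1 (Slc11a2). What is not used is stored in the ferritin shell, built of a heavy chain with ferroxidase activity (Fth1) and a light chain that favours core formation (Ftl1). In the adult brain oligodendrocytes are the main makers of transferrin and stain strongly for iron. Iron regulatory proteins set the use of several of these mRNAs by binding a short hairpin, the iron-responsive element: at the 5′ end of an mRNA they block its translation, and in the 3′ UTR of the Tfrc mRNA they protect it from decay.

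Since read counts do not see control of translation, the elements that a strict pattern found in the 8 genes are shown here. A C, 5 bases that pair with 5 bases on the other side (G-T pairs allowed) and a loop of the letters CAGTGN were searched on the transcribed strand of the UTRs annotated in GENCODE M21 (GRCm38, the same assembly as mm10). Each line gives 30 bases, 5′ to 3′, with the loop in capitals.
Slc40a1, 5′ UTR, chr1:45925464-45925493, minus strand: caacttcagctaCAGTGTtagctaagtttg
Fth1, 5′ UTR, chr19:9982732-9982761, plus strand: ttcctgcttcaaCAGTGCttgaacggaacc
Ftl1, 5′ UTR, chr7:45459778-45459807, minus strand: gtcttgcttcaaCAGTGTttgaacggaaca
Tfrc, 3′ UTR, chr16:32631219-32631248, plus strand: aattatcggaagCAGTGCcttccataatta
Tfrc, 3′ UTR, chr16:32631598-32631627, plus strand: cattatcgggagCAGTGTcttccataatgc
Tfrc, 3′ UTR, chr16:32631663-32631692, plus strand: ctatatcggagaCAGTGAtctccatatgtt
Tfrc, 3′ UTR, chr16:32631710-32631739, plus strand: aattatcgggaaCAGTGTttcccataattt

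The pattern was in the 5′ UTR of 31 of 20900 genes (0.148%) and in the 3′ UTR of 129 of 21681 genes (0.595%). A match is a description of the letters and not a measured site, and the absence of a match in Heph, Cp, Trf and Slc11a2 says only that these letters are not in their annotated UTRs.

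Counts on genes totalled 16386029 to 50459755 per sample (median 34280155). Wiz itself was lower in every Wiz MommeD30/+ sample than in any Wiz +/+ sample of its tissue and sex, at 111.7 to 121.7 against 172.6 to 189.9 CPM (counts divided by library size, as scaled by the TMM method) in E13.5 brain and 73.1 to 74.7 against 104.4 to 105.3 CPM in cerebellum, as the labels say. Markers also followed the labels: the 10 cerebellar neuron markers summed to 7947 to 8290 CPM in the cerebellums and 168 to 179 CPM in the brains, and the 10 markers of embryonic progenitors and new neurons to 551 to 618 and 4896 to 5124 CPM. Differences were tested with edgeR's quasi-likelihood test on the counts, with p-values adjusted by Benjamini-Hochberg over every gene tested. The threshold was that of the study: the adjusted p had to be 0.05 or less, and the fold change had to lie outside 0.7 to 1.3. Each of the 8 genes passed the filter on low counts in every comparison.

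Export genes were read first. Heph (ENSMUSG00000031209, chromosome X, 96455359 to 96574485, plus strand) was counted at 12.8, 14.1 and 16.5 CPM in the male Wiz +/+ brains and at 23.3, 22.3 and 18.7 CPM in the male Wiz MommeD30/+ brains. In female brains it was at 17.1 and 14.2 CPM in Wiz +/+ and at 21.7 and 20.02 CPM in Wiz MommeD30/+. The genotypes did not overlap in either sex, which is the pattern for which Heph was chosen. The log2 fold change, Wiz MommeD30/+ over Wiz +/+, was 0.58 in males and 0.42 in females. The difference between these 2 values, -0.16, is also given without a test.

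In the adult cerebellum, which played no part in choosing it, Heph was at 5.99, 6.04 and 6.43 CPM in Wiz +/+ and at 7.04, 5.92 and 5.44 CPM in Wiz MommeD30/+. The genotypes overlapped and the Wiz MommeD30/+ values spread on both sides of the wildtype ones. The log2 fold change was -0.0049 (SE 0.11, adjusted p = 0.989), with an interval of -0.23 to 0.22. The cerebellum difference minus the male brain difference was -0.59 on the log2 scale, given without a test or interval since the brain term chose the gene.

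**Figure D1:**
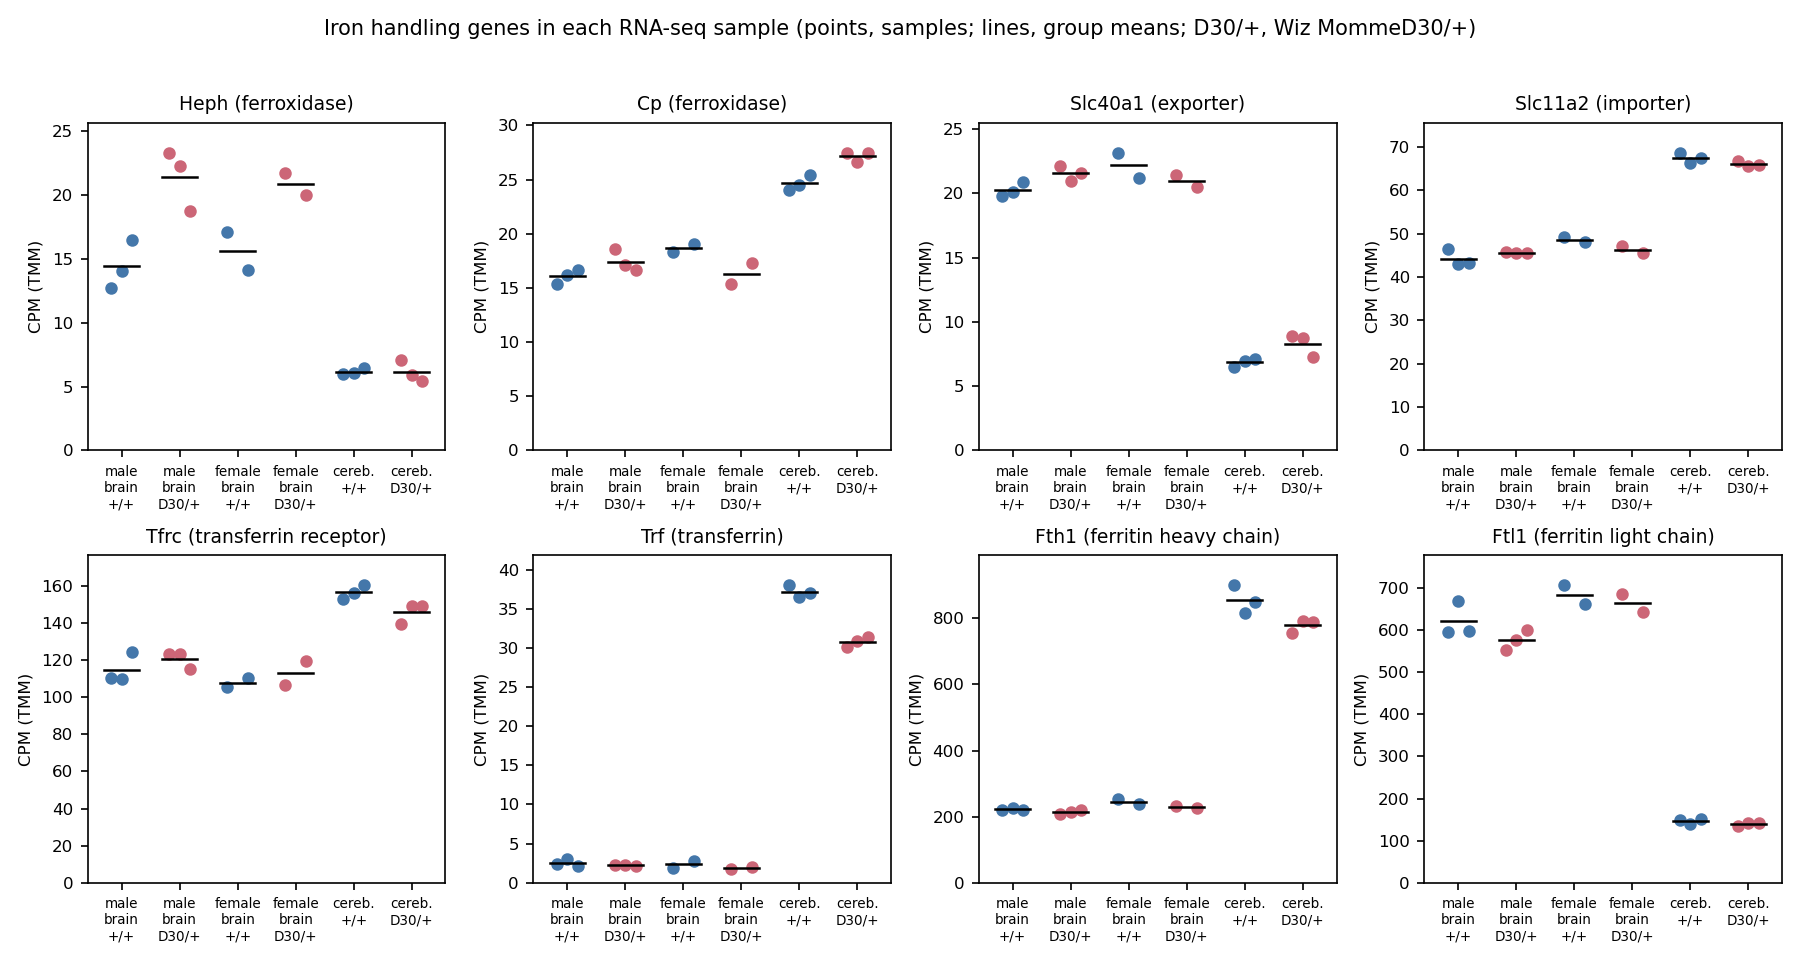
CPM scaled by the TMM method over all 16 samples (y axis, from 0) of the 8 iron handling genes, 1 panel per gene, in the 6 groups of samples (x axis), where points are samples and lines are group means. The Heph values of Wiz MommeD30/+ brains, 18.7 to 23.3 CPM, lie above the 12.8 to 17.1 CPM of Wiz +/+ brains, while the cerebellums lie together at 5.44 to 7.04 CPM, and Trf in cerebellum is at 30.1 to 31.4 CPM in Wiz MommeD30/+ against 36.5 to 38.0 CPM in Wiz +/+.

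The genes next to Heph on the X chromosome were examined in the same fits. Of 5 neighbours within 1000 kb (Las1l, Msn, F630028O10Rik, Gpr165 and Eda2r), 0 of 5 passed the threshold in male or female brain and 0 of 4 tested in cerebellum. Their log2 fold changes ran from -0.05 to 0.12 in male brain (smallest adjusted p = 0.526), from -0.24 to 0.46 in female brain (0.798) and from -0.38 to 0.07 in cerebellum (0.112). Msn, which codes for the cytoskeletal linker moesin and lies 287 kb before Heph, was at 0.12 (SE 0.05) in males and 0.11 (SE 0.06) in females.

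Cp (ENSMUSG00000003617, chromosome 3, 19957054 to 20009145, plus strand), the other ferroxidase, did not follow Heph. It was at 15.4, 16.2 and 16.6 CPM in male Wiz +/+ brains and at 18.6, 17.1 and 16.6 CPM in male Wiz MommeD30/+ brains, higher without overlap but nearly touching. In females the order was the other way round, with 18.3 and 19.0 CPM in Wiz +/+ and 15.3 and 17.3 CPM in Wiz MommeD30/+. In cerebellum it was at 24, 24.5 and 25.4 CPM in Wiz +/+ and at 27.5, 26.6 and 27.5 CPM in Wiz MommeD30/+, again without overlap. The log2 fold changes of 0.12 (SE 0.06, adjusted p = 0.644), -0.19 (SE 0.09, 0.797) and 0.14 (SE 0.05, 0.0986) did not pass the test in males, females or cerebellum. Several marker sets had mainly negative log2 fold changes in female brain, among them endothelial (9 of 10), microglial (10 of 10) and erythroid (8 of 11). Erythroid markers were mainly positive in male brain (8 of 10). Markers of progenitors and new neurons were mainly positive in female brain (8 of 10). Choroid plexus markers were positive for 9 of 10 in male brain (median 0.20) and negative for 9 of 10 in female brain (median -0.18), none past the threshold. In cerebellum, where Cp was positive, 9 of 10 choroid plexus markers were negative (median -0.10). Their sums overlapped between genotypes, at 327 to 403 against 351 to 429 CPM in male brain, 299 to 517 against 311.5 to 417 CPM in female brain and 1971 to 2235 against 1094 to 2309 CPM in cerebellum, with no marker at 0. Their part in the Cp values was not tested.

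Slc40a1 (ENSMUSG00000025993, chromosome 1, 45908068 to 45926523, minus strand), the ferroportin gene, was at 19.8, 20.1 and 20.9 CPM in male Wiz +/+ brains and 22.1, 20.9 and 21.6 CPM in male Wiz MommeD30/+ brains. Female brains had 23.2 and 21.2 CPM in Wiz +/+ and 21.4 and 20.4 CPM in Wiz MommeD30/+, and overlapped. In cerebellum the Wiz +/+ samples were at 6.46, 6.93 and 7.14 CPM and the Wiz MommeD30/+ samples at 8.93, 8.72 and 7.26 CPM, with no overlap. Its log2 fold change there, 0.28 (SE 0.10, interval 0.07 to 0.49), was the most positive of the 8 genes in that tissue and did not pass after adjustment (adjusted p = 0.112). In brain it was 0.09 (SE 0.05, adjusted p = 0.687) in males and -0.08 (SE 0.08, adjusted p = 0.906) in females.

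Among the uptake genes, Trf stood out in the cerebellum. Trf (ENSMUSG00000032554, chromosome 9, 103204001 to 103230444, minus strand) was at 38.0, 36.5 and 37.0 CPM in the Wiz +/+ cerebellums and at 30.1, 30.9 and 31.4 CPM in the Wiz MommeD30/+ cerebellums. All 3 Wiz MommeD30/+ samples lay below the lowest Wiz +/+ sample. The log2 fold change was -0.27 (SE 0.04, adjusted p = 0.00204), a fold of 0.831, which passed the adjusted p and stayed inside the fold limits. In brain, Trf was low and uneven, at 2.43, 3.07 and 2.12 CPM in male Wiz +/+, 2.32, 2.29 and 2.10 CPM in male Wiz MommeD30/+, 1.91 and 2.83 CPM in female Wiz +/+ and 1.75 and 1.98 CPM in female Wiz MommeD30/+. Those log2 fold changes, -0.13 (SE 0.14, adjusted p = 0.841) and -0.34 (SE 0.23, adjusted p = 0.85), had intervals from -0.44 to 0.18 and from -0.87 to 0.18, which include the cerebellum value. Single samples moved them: the male value was -0.24 without the third Wiz +/+ brain and -0.03 without the second, and the female value was -0.61 without the first Wiz +/+ brain and -0.04 without the second.

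Oligodendrocyte and myelin markers moved with Trf in the cerebellum. The 10 markers summed to 5466 to 5875 CPM in Wiz +/+ and 5264 to 5519 CPM in Wiz MommeD30/+, a ratio of means of 0.938, with no marker at 0. None of the 10 was past the threshold. By adjusted p alone 4 were lower (Mbp, Mag, Cnp and Sox10, named after their values were seen), beside 2.56% of all genes. Their log2 fold changes were -0.27 to -0.11. With the log2 sum of the 10 markers as a covariate, Trf had a log2 fold change of -0.24 (SE 0.07, adjusted p = 0.208). The part of these cells in the Trf difference was otherwise not tested.

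Tfrc (ENSMUSG00000022797, chromosome 16, 32608920 to 32632794, plus strand), the receptor gene, was at 153, 156 and 161 CPM in Wiz +/+ cerebellums and 140, 149 and 149 CPM in Wiz MommeD30/+ cerebellums, without overlap. Its log2 fold change was -0.10 (SE 0.03, adjusted p = 0.1). Brains of both genotypes spanned 106 to 124 CPM and overlapped, with log2 fold changes of 0.07 (SE 0.05, adjusted p = 0.744) in males and 0.07 (SE 0.06, adjusted p = 0.9) in females. Slc11a2 (ENSMUSG00000023030, chromosome 15, 100387898 to 100425072, minus strand), the DMT1 gene, had narrow ranges: 66.5 to 68.7 CPM against 65.6 to 66.7 CPM in cerebellum, 43.0 to 46.5 against 45.5 to 45.7 CPM in male brain and 48.0 to 49.2 against 45.6 to 47.2 CPM in female brain. The intervals of its log2 fold changes, -0.10 to 0.04, -0.06 to 0.14 and -0.21 to 0.07 in that order, were all inside the fold limits.

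The ferritin heavy chain gene Fth1 (ENSMUSG00000024661, chromosome 19, 9980598 to 9985098, plus strand) was at 901, 817 and 850 CPM in the Wiz +/+ cerebellums and at 756, 792 and 788 CPM in the Wiz MommeD30/+ cerebellums. The genotypes did not overlap, and the first Wiz +/+ sample was the highest of the 6. The log2 fold change was -0.13 (SE 0.03, adjusted p = 0.0227), a fold of 0.912, again past the adjusted p and inside the fold limits. Without that first Wiz +/+ sample it was -0.10 and its adjusted p rose to 0.115. With the oligodendrocyte markers as a covariate, added after seeing the data, it was -0.05 (SE 0.04, adjusted p = 0.794). The marker sums were themselves lower on average in Wiz MommeD30/+ (ratio of means 0.938), so that this fit cannot part these cells from genotype. The part of these cells in the Fth1 difference was otherwise not tested.

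In brain, Fth1 was at 219.8 to 227.3 CPM in male Wiz +/+ and 209.1 to 220.3 CPM in male Wiz MommeD30/+, which overlapped, and at 253 and 238 against 233 and 225 CPM in females, which did not. The log2 fold changes were -0.06 (SE 0.03, adjusted p = 0.688) and -0.10 (SE 0.05, adjusted p = 0.811). The light chain gene Ftl1 (ENSMUSG00000050708, chromosome 7, 45457944 to 45459884, minus strand) was at 149, 140 and 150 CPM in Wiz +/+ cerebellums and 135, 142 and 143 CPM in Wiz MommeD30/+ cerebellums. In brain it was at 594.9 to 670.1 against 551.7 to 599.6 CPM in males and at 707 and 661 against 686 and 642 CPM in females. Ftl1 overlapped between the genotypes in each comparison, with log2 fold changes of -0.06 (SE 0.03, adjusted p = 0.322), -0.11 (SE 0.05, adjusted p = 0.584) and -0.04 (SE 0.06, adjusted p = 0.934) in cerebellum, male brain and female brain.

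**Figure D2:**
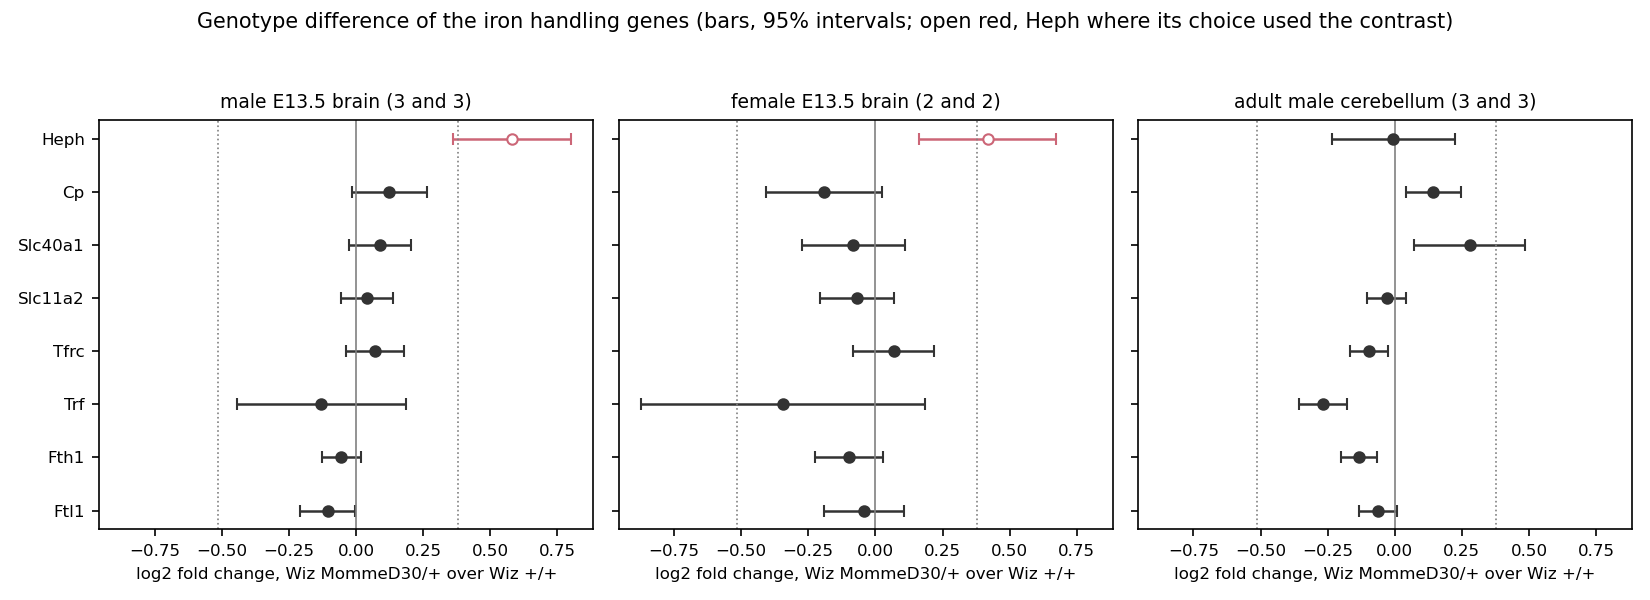
Log2 fold change of Wiz MommeD30/+ over Wiz +/+ (x axis) of the 8 genes (y axis) in the 3 genotype comparisons, with 95% intervals as bars, the fold limits as dotted lines and the Heph values that led to its choice as open red points. The bars of the open red points do not allow for that choice and are no test. Trf at -0.27 and Fth1 at -0.13 in cerebellum are the genes past the adjusted p, and every point other than Heph in male and female brain lies between the fold limits.

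Counted over the set, 7 genes other than Heph were tested in E13.5 brain and 0 of 7 passed the threshold in either sex in edgeR's quasi-likelihood test. Of all genes tested, 0.184% were past it in male brain and 0.111% in female brain. At an unadjusted p under 0.05 1 of the 7 genes was found in males (Ftl1) and none in females, beside 8.45% and 6.4% of all genes, and DESeq2's Wald test called none of the 7 either. In cerebellum 0 of 8 passed the threshold, with DESeq2's Wald test calling none as well, and 0.832% of all genes passed it in edgeR's test. By adjusted p alone 2 of 8 were called there, both lower, where 5.25% of all genes were called and 2.56% were lower, and 5 of 8 had an unadjusted p under 0.05 (Cp, Slc40a1, Tfrc, Trf and Fth1), against 19.9% of all genes. With Heph left out, since it was chosen for this pattern, genotypes did not overlap for Cp and Slc40a1 in male brain, beside 12.4% of all genes. In female brain they did not overlap for Cp, Slc11a2 and Fth1, beside 36% of all genes. In cerebellum they did not overlap for 5 of 8 genes, beside 24% of all genes.

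In the cerebellum the log2 fold changes of Cp and Slc40a1 were positive, that of Heph was near 0 and those of the 5 uptake and storage genes were negative. The whole set had a median log2 fold change of -0.05 there, against -0.0031 over all genes tested. Whether the genotype differences in cerebellum differed from those in male brain was tested with an interaction term for the 7 genes other than Heph. None passed, where 0.173% of all genes did, with DESeq2's Wald test calling none as well, and 1 of 7 had an unadjusted p under 0.05, beside 9.72% of all genes: Tfrc, at -0.17 (SE 0.07, adjusted p = 0.373). For Trf the interaction was -0.15 (SE 0.12, adjusted p = 0.761) and for Slc40a1 0.19 (SE 0.11, adjusted p = 0.608).

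A wider list of 73 genes of iron handling, grouped by role, set these values in context. It was drawn up with earlier results known and gets no test of its own. With Heph left out, 0 of 65 genes passed the threshold in male brain and 0 of 66 in female brain in edgeR's quasi-likelihood test, and 2 of 65 and 4 of 66 had an unadjusted p under 0.05, beside 8.45% and 6.4% of all genes. DESeq2's Wald test called none of them either. In cerebellum 1 of 64 passed, where 0.832% of all genes did. It was Alas2, which codes for the erythroid enzyme that starts haem synthesis. Alas2 was at 7.47, 7.71 and 9.39 CPM in Wiz +/+ and at 13.0, 25.0 and 14.0 CPM in Wiz MommeD30/+, a log2 fold change of 1.08 (SE 0.18, adjusted p = 0.00325), with 1 Wiz MommeD30/+ sample well above the others.

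Erythroid markers moved with Alas2. The 11 matched markers summed to 154 to 241 CPM in the Wiz +/+ cerebellums and 279 to 505 CPM in the Wiz MommeD30/+ cerebellums, a ratio of means of 1.76. Of the 5 that could be tested, 3 were past the threshold and higher, beside 0.832% of all genes past it in either direction. All 3 were adult globin genes (Hba-a1, Hba-a2 and Hbb-bs, named after their values were seen). Of the 11, 3 were at 0 in every cerebellum. With these markers as a covariate Trf had a log2 fold change of -0.25 (SE 0.07, adjusted p = 0.0824) and Fth1 of -0.12 (SE 0.05, adjusted p = 0.36). Their part in the Alas2 difference was not tested, and their part in the Trf and Fth1 differences was otherwise not tested.

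By role, the uptake and reduction genes had 12 of 13 negative log2 fold changes in cerebellum with a median of -0.05, and the mitochondrial iron and iron-sulphur cluster genes 13 of 19 with a median of -0.03. These medians are small, since the median absolute log2 fold change of all genes tested there was 0.0699. By adjusted p alone 1 of the 13 uptake and reduction genes was called, Trf. Storage genes and chaperones had 4 of 5 negative and export genes 3 of 5. In the hepcidin axis and among the iron regulatory proteins 3 of 7 were negative, and in haem metabolism 9 of 15. Over the whole list 44 of 64 were negative with a median of -0.03. In male brain the same list, Heph included, split 35 positive to 31 negative, with a median of 0.0043, and in female brain 32 to 35, with a median of -0.012.

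The tissue and age comparison gave much larger differences. Cerebellums of adult Wiz +/+ males were set against E13.5 brains of Wiz +/+ males, a contrast in which region and age differ together and cannot be told apart. The Wiz +/+ male brains also entered the comparison for which Heph was chosen. All 8 genes passed the threshold and their groups did not overlap, but 69.3% of all genes tested passed it and 87.3% did not overlap, so that passing says little about these genes. Trf was 15.2-fold higher in cerebellum (log2 3.93, SE 0.09), rising from 2.54 ± 0.48 to 37.2 ± 0.81 CPM (SD, n = 3 each). Fth1 was 3.85-fold higher (log2 1.94, SE 0.04), at 223 ± 3.98 and 856 ± 42.1 CPM. Ftl1 went the other way, to 0.237 of its brain level (log2 -2.08, SE 0.05), from 621 ± 42.6 to 146.5 ± 5.78 CPM.

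The export genes also parted. Slc40a1 fell from 20.3 ± 0.54 to 6.85 ± 0.35 CPM (log2 -1.56, SE 0.07) and Heph from 14.4 ± 1.89 to 6.15 ± 0.24 CPM (log2 -1.22, SE 0.10), while Cp rose from 16.1 ± 0.62 to 24.6 ± 0.72 CPM (log2 0.62, SE 0.06). Slc11a2 rose from 44.2 ± 1.96 to 67.6 ± 1.14 CPM (log2 0.61, SE 0.05) and Tfrc from 115 ± 8.15 to 157 ± 3.84 CPM (log2 0.44, SE 0.05). The largest adjusted p among the 8 was 5.44e-07, that of Tfrc. In Wiz MommeD30/+ males the same contrast gave -1.81 for Heph, whose brain level is higher in them, and 0.28 for Tfrc, which then stayed inside the fold limits.

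Oligodendrocyte markers moved with the tissue too. They summed to 90.7 to 106 CPM in the Wiz +/+ male brains and 5466 to 5875 CPM in the Wiz +/+ cerebellums. Past the threshold and higher were 10 of 10, beside 36.4% of all genes. Erythroid markers went down, from 681 to 970 CPM to 154 to 241 CPM. Choroid plexus markers summed to 327 to 403 CPM in the brains and 1971 to 2235 CPM in the cerebellums. Their part in the tissue differences was not tested.

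**Figure D3:**
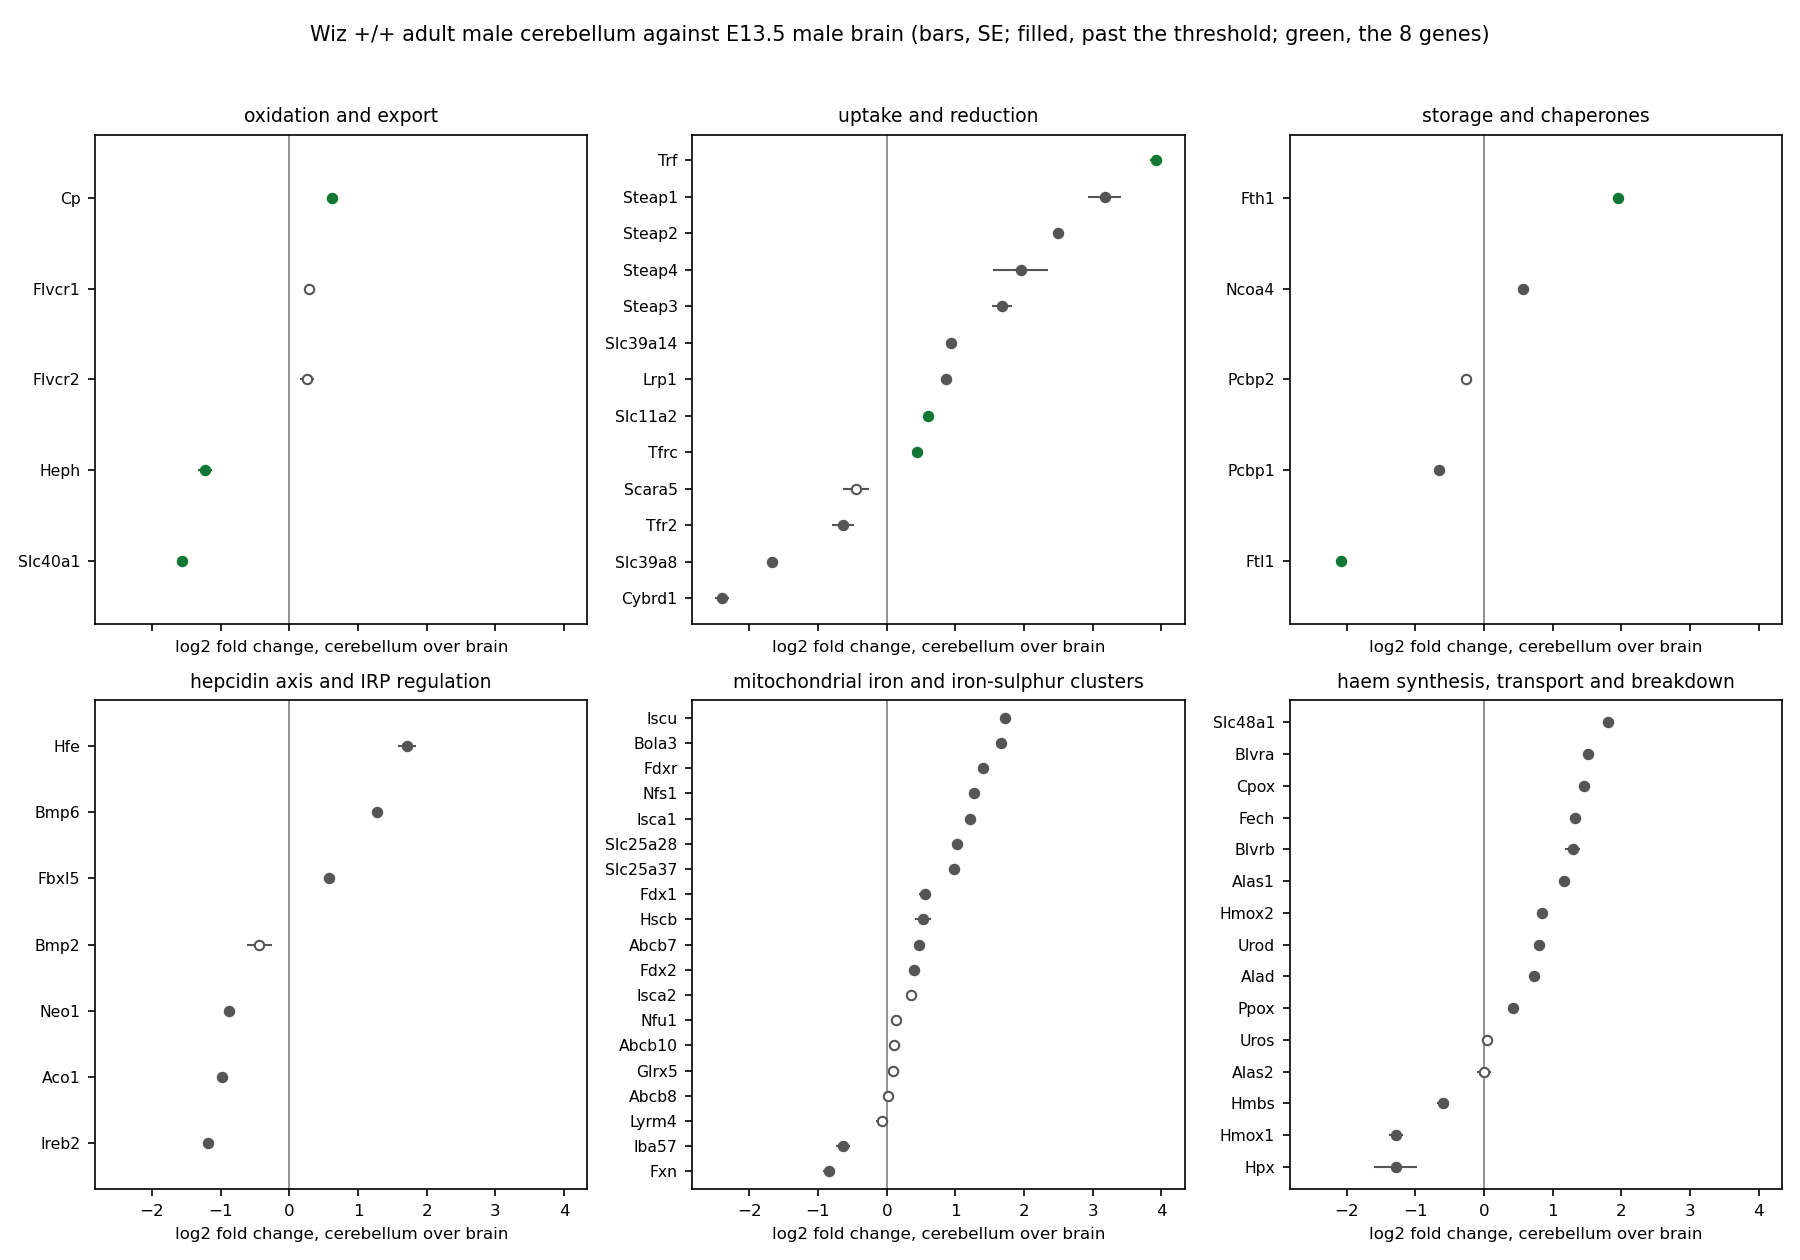
Log2 fold change of Wiz +/+ adult male cerebellum over Wiz +/+ male E13.5 brain (x axis) of the 64 tested genes of the wider iron list (y axis), by role, with SE as bars, filled points past the threshold and the 8 iron handling genes in green. Of the 64 genes, 36 were higher and 15 lower past the threshold, and Trf, at 3.93, was the highest.

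Of the wider list, 51 of 64 genes passed in this contrast, 36 of them higher in cerebellum (36.4% of all genes) and 15 lower (32.9%). The median log2 fold change was 0.50, against -0.015 over all genes. Among uptake and reduction genes 9 were higher and 3 lower of 13, led by Trf and by the ferrireductase family genes Steap1 and Steap2. Steap1 (log2 3.17, SE 0.24) was low, at 0.26 ± 0.08 CPM in brain and 2.39 ± 0.21 CPM in cerebellum. Steap2 (log2 2.49, SE 0.06) was at 20.9 ± 2.36 CPM in brain and 120 ± 3.06 CPM in cerebellum. In storage 2 of 5 were higher and 2 lower, with the iron chaperone gene Pcbp1 at -0.65 (SE 0.04) beside the ferritin genes. In export 1 of 5 was higher and 2 lower.

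In the regulatory group 3 of 7 were higher, among them Hfe (log2 1.71, SE 0.13), the haemochromatosis gene, and Bmp6 (log2 1.27, SE 0.07), a ligand that drives hepcidin in liver. The other 3 that passed were lower, with Ireb2, the gene of iron regulatory protein 2, at -1.19 (SE 0.05). Among mitochondrial genes 11 of 19 were higher and 2 lower, and Iscu, the scaffold on which iron-sulphur clusters are built, rose by 1.73 (SE 0.06) on the log2 scale, with Bola3 at 1.67 (SE 0.08) and the ferredoxin reductase gene Fdxr at 1.39 (SE 0.06). In haem metabolism 10 of 15 were higher and 3 lower, led by the haem transporter gene Slc48a1 at 1.81 (SE 0.04), the biliverdin reductase gene Blvra at 1.52 (SE 0.07) and the haem synthesis gene Cpox at 1.45 (SE 0.06).

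Levels were compared between genes per length, as RPKM (the CPM divided by the gene's length in kilobases), using the exon union of each gene. This length joins all annotated transcripts of a gene, so that levels and order can depend on the annotation. In male Wiz +/+ brain the order was Ftl1 at 463 ± 31.8, Fth1 at 64.2 ± 1.15, Tfrc at 18.6 ± 1.32, Slc11a2 at 6.96 ± 0.31, Slc40a1 at 2.25 ± 0.06, Heph at 1.88 ± 0.25, Cp at 1.68 ± 0.07 and Trf at 0.76 ± 0.15 RPKM (SD, n = 3). Heph and Cp were within 1 SD of each other. In Wiz +/+ cerebellum it was Fth1 at 247 ± 12.1, Ftl1 at 109 ± 4.31, Tfrc at 25.3 ± 0.62, Trf at 11.2 ± 0.24, Slc11a2 at 10.6 ± 0.18, Cp at 2.58 ± 0.08, Heph at 0.80 ± 0.03 and Slc40a1 at 0.76 ± 0.04 RPKM. There Heph and Slc40a1 differed by little more than their SD.

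The level of Trf may be understated, since 2108 bases of its exons are shared on the same strand with Gm20425, which received 1 count in all 16 samples, and reads over both can go uncounted. Reads that also match ferritin copies could have been lost to Fth1 and Ftl1. The 14 copies and relatives themselves took 191 counts, 0.0368% of all ferritin counts. Slc11a2 shares 402 exon bases on the opposite strand with Gm5475 Cp 108 with Hps3 and Heph 29 with Hsf3, and the library kit did not mark strand.

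The ferritin chains changed places between the tissues. Per length, the Fth1 to Ftl1 ratio was 0.131 to 0.146 in the 10 brains and 2.13 to 2.33 in the 6 cerebellums, with no sample between. The level of the ratio rests on exon unions of 3469 bases for Fth1 and 1340 bases for Ftl1. Not divided by length, Fth1 and Ftl1 were at 223 and 621 CPM in Wiz +/+ male brain and at 856 and 146.5 CPM in Wiz +/+ cerebellum. In Wiz +/+ males the ratio differed by 4.02 on the log2 scale, for which an exact two-sided permutation test gave p = 0.1 (adjusted over 4 comparisons, 0.2), the smallest p that 3 against 3 samples allow. Between genotypes the cerebellum ratio was 2.26 ± 0.07 in Wiz +/+ and 2.15 ± 0.02 in Wiz MommeD30/+ (SD, n = 3 each), again without overlap, at the same smallest exact permutation p of 0.1 (adjusted 0.2). In male brain the exact permutation p was 0.6 and in female brain 0.333, the smallest that 2 against 2 samples allow.

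**Figure D4:**
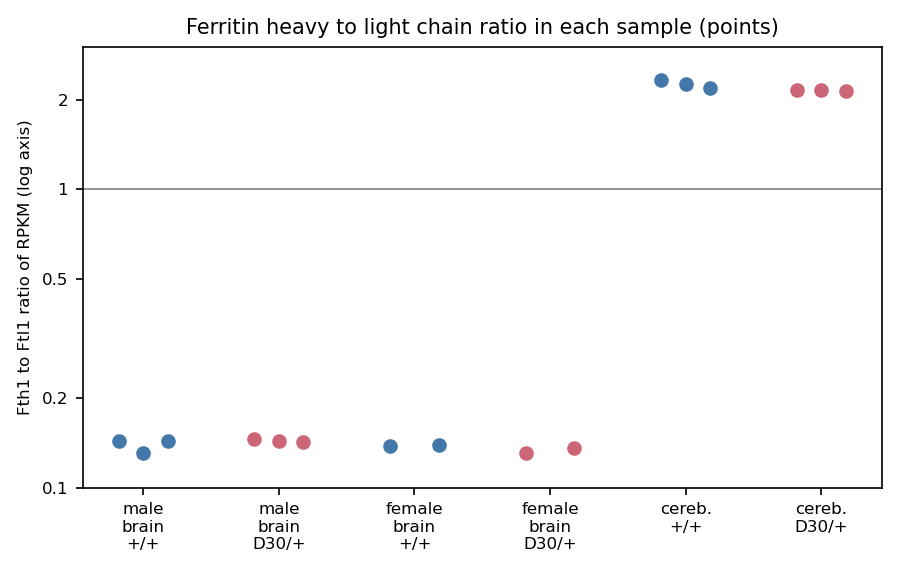
Ratio of Fth1 to Ftl1 RPKM (y axis, log scale) in each of the 16 samples (points) by group (x axis). The 10 E13.5 brains lie at 0.131 to 0.146 and the 6 adult cerebellums at 2.13 to 2.33, on either side of a ratio of 1.

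Sex was compared over the 10 brains with genotype in the model, a measure that played no part in choosing Heph. The study describes RNA-seq of the male brains as done initially and that of the female brains apart. Whether both were processed together was not given, so that sex and such a difference cannot be told apart. Heph, although X-linked, differed by 0.03 on the log2 scale (female minus male, SE 0.08, adjusted p = 0.829), with an interval of -0.15 to 0.22. None of the 8 genes passed the threshold, with DESeq2's Wald test calling none as well, and 1.46% of all genes passed it in edgeR's test. By adjusted p alone both ferritin genes were higher in females, Fth1 by 0.12 (SE 0.03, adjusted p = 0.0191) and Ftl1 by 0.17 (SE 0.04, adjusted p = 0.0193), where 5.48% of all genes were, and 4 of 8 had an unadjusted p under 0.05, beside 28% of all genes. Without the first female Wiz +/+ brain neither gene passed the adjusted p (Fth1 at 0.10, adjusted p = 0.0681, and Ftl1 at 0.16, 0.0584), Fth1 also just missed it without the first male Wiz +/+ brain (0.0501), and with the replicate number as a block the adjusted p values were 0.0833 and 0.0988. The sexes still overlapped for both genes: Fth1 ran from 209.1 to 227.3 CPM in males and from 225.4 to 252.8 CPM in females, and Ftl1 from 551.7 to 670.1 and from 641.8 to 707.2 CPM.

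Of the wider list 5 of 70 passed in the sex comparison, beside 1.46% of all genes. Blvrb, a biliverdin reductase gene abundant in red cells, was higher in females, at 4.24 to 4.99 CPM against 3.16 to 4.02 CPM in males (log2 0.46, SE 0.08, adjusted p = 0.00748). The 4 lower ones were Hamp, Tmprss6, Hpx and Hp, of which Hamp and Tmprss6 belong to the hepcidin axis and the others code for plasma carriers of haem and haemoglobin, and all are known chiefly from liver. They rested on few reads: Hamp had 1 to 14 counts in the 6 male brains and 0 counts in each of the 4 female brains, which allows up to 3 counts per library as far as counting error goes. Hp had 3 to 26 counts in male and 2 to 8 in female brains, Hpx 14 to 50 and 9 to 13, and Tmprss6 6 to 19 and 3 to 7. With DESeq2's Wald test 1 gene of the list passed in place of 5. Erythroid markers were higher in females, at 1190 to 1321 CPM against 681 to 1094 CPM in males, with none at 0 in a whole group. Past the threshold and higher were 5 of 11 erythroid markers and 3 of 10 markers of meninges, mesenchyme and pericytes, beside the same 1.46% of all genes past it in either direction. Their part in the ferritin and Blvrb differences was not tested, and neither litter nor dissection day was given to compare.

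Genes whose pattern over the 16 samples was most like that of Heph were found by Pearson's r of log2 CPM among 14782 genes with a mean of at least 1 CPM. The 5 highest were Invs (r = 0.981), Tecta (0.98), Prkg2 (0.978), Crybg3 (0.978) and Tmem209 (0.977). The samples share the split between embryonic brain and adult cerebellum, and 4833 of the genes had an r above 0.9. After the mean of each group was taken away, the r of these 5 with Heph was 0.506, 0.24, 0.338, 0.572 and 0.603, so that the likeness lay mostly in the tissue split and less in the differences among samples of a group.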

How the data were processed

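RNA was measured in 16 samples in 6 groups, taken from the labels. The 3 Wiz ChIP-seq samples were not analysed here. PolyA RNA was read from one end by the authors, aligned to mm10 (Tophat 2.0.11) and counted per Ensembl gene (htseq-count 0.6.1). Each deposited file holds the raw counts of 1 sample, with no normalization by the authors. The counting mode, strand setting and annotation release are not given in the sources used here. Samples are biological replicates per the study's methods. Replicates differed by more than sampling noise, the chi-square divided by its degrees of freedom being 2.05 to 10.5.

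Symbols and positions came from GENCODE M21, which held 40340 of the 41388 identifiers. The other 1048 held at most 0.171% of a sample's counts. Counts were fitted with edgeR 4.0.16 in R 4.3.3 (TMM, filterByExpr with a minimum count of 10, quasi-likelihood test), each comparison on its own samples. CPM printed are scaled by TMM over all 16 samples, with a prior count of 2 on the log2 scale for the likeness to Heph. Intervals are 95%. DESeq2 1.42.0, its size factors, no low-count filter, an average count of at least 50, adjusted p alone, the replicate number as a block, other sample sets and leaving out each sample were alternatives. The genotype by sex test and marker covariates were added after seeing the data. The fits were tested on simulated counts. Figures, iron-responsive element searches and permutation tests used Python 3.11.15, numpy 2.4.6, pandas 2.3.3, scipy 1.17.1 and matplotlib.

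The 8 genes, the wider list and the markers were chosen with earlier results of these data known. Named were the 8 genes, genes of the wider list past the threshold (in the tissue contrast the 3 largest per role), the 5 genes most like Heph, its nearest tested neighbours (those within 1000 kb, a limit added later, so that 1 gene is not reported here), Wiz and ferritin copies. Of 92 markers 91 were matched.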

Additional observations from a re-analysis of the deposited data

Results flagged for a closer look

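The genotype difference of Cp had a different direction in the sexes. Its log2 fold change was 0.124 in male brain and 0.144 in cerebellum, with every Wiz MommeD30/+ sample above every Wiz +/+ sample, and -0.193 in female brain, with both Wiz MommeD30/+ samples below both Wiz +/+ samples. A genotype by sex term over the 10 brains, added after this was seen, gave -0.31 (SE 0.11), which did not pass after adjustment over all genes in edgeR's quasi-likelihood test (adjusted p = 0.985), where 0% of genes passed. The choroid plexus markers had 9 of 10 negative in that term (median -0.364) and 0 of 10 past the threshold. Most other marker sets were mainly negative in it too, among them endothelial (10 of 10), erythroid (9 of 11) and microglial (8 of 10). Markers of progenitors and new neurons were mainly positive (8 of 10). In cerebellum, where Cp was positive, 9 of 10 choroid plexus markers were negative. The part of these cells in the Cp values was not tested. The difference between cerebellum and female brain was not tested. With 2 samples per genotype in females and 3 in males, groups that do not overlap were common, at 36% and 12.4% of all genes tested.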

How the results depend on the processing

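Heph is left out of these counts in the genotype comparisons of brain. In male brain, where 0 of the other 7 genes and 0 of the wider list passed, no filter gave 1 gene of the wider list, and leaving out a sample gave 0 of the 7 each time and 0 to 1 of the wider list, the higher count without the third Wiz MommeD30/+ brain. In female brain, where 0 passed, leaving out a sample gave 0 of the 7 each time and 0 to 1 of the wider list, the higher count without the first Wiz +/+ brain. In cerebellum adjusted p alone gave 2 and 3 genes, and leaving out a sample left both counts as they were, at 0 and 1. For the genotype by tissue term, with 0 passing, no filter gave 1 gene of the wider list. For sex, adjusted p alone gave 2 and 13 genes, and the wider list's 5 became 1 with DESeq2's Wald test, an average count of at least 50 or the replicate block, and 3 to 6 when a sample was left out. In the tissue contrast leaving out a sample gave 8 genes each time and 51 to 53 of the wider list.

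With all 10 brains in one fit and sex as a covariate, the genotype difference turned from 0.12 to -0.012 for Cp and from 0.04 to -0.0051 for Slc11a2. The genotype by tissue value of Cp was -0.0024 with no filter. None of these passed the test. Leaving out a sample gave Heph 0.47 to 0.70 in male brain and 0.29 to 0.56 in female brain, with the direction kept, and Trf -0.28 to -0.25 in cerebellum (adjusted p 0.00441 to 0.0173). These values changed sign when a sample was left out: Heph in cerebellum (-0.11 to 0.082) and by sex (-0.034 to 0.077), Slc40a1 by sex (-3.32e-05 to 0.076), Tfrc (-0.014 to 0.147) and Ftl1 (-0.094 to 0.0064) in female brain, Cp (-0.016 to 0.064) and Ftl1 (-0.0072 to 0.067) in the genotype by tissue term, and Tfrc (-0.0801 to 0.077), Trf (-0.46 to 0.10, from -0.20 with every sample, positive without the second female Wiz +/+ brain) and Fth1 (-0.0803 to 0.0082) in the genotype by sex term. The cause was not tested.

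Fth1 in cerebellum stayed past the adjusted p in 3 of 6 such fits (0.00809 to 0.115). Samples with the same number did not deviate together (the mean r of their deviations was -0.125, -0.062 and -0.042 in the 3 genotype comparisons), so that the replicate block is an alternative and not a pairing of samples. Depth limits Trf in brain, Hamp and the other genes with few counts most.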
